A study of Bos taurus with 14 samples.

Results

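The genes described here encode the RNA polymerases of the nucleus and the general factors that place them at promoters. They were chosen by symbol: each probe set (the group of short probes that measures a transcript on an Affymetrix array) was kept where its single gene symbol began with POLR1, POLR2 or POLR3, with GTF2 or GTF3, or with TAF followed by a digit. This gave 53 genes on 81 probe sets, out of 9155 named genes on 13292 probe sets with a single symbol. No measured value entered the choice of a gene, but the gene family was chosen from earlier results of these same arrays, so the counts below describe the family and are not independent support for a direction.

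The arrays measured whole Day 15 conceptuses from Holstein cattle, the elongating embryo with its membranes. Superovulated donor cows were inseminated with semen of a single bull, embryos were collected at Day 6.5, graded by morphology and placed in recipient heifers together with others of the same grade, and each conceptus was recovered at Day 15, measured and frozen. The 14 arrays held 5 long and 5 short Grade 1 conceptuses, 1 Grade 1 conceptus with no length label, and 3 Grade 3 conceptuses. The long group held 1 male and 4 females, the short group 2 males and 3 females, and the Grade 3 group 2 males and 1 female. Several embryos shared a recipient, so conceptuses may not be fully independent, and the p-values treat them as if they were. Short replicate 1 is called long by its source name and short by its length label, and was used as short. A conceptus is a mixture of tissues, and in such bulk RNA a smaller share of cells of a type and less RNA per cell cannot be told apart.

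RNA polymerase I transcribes the precursor of the large ribosomal RNAs, RNA polymerase II transcribes messenger RNAs, and RNA polymerase III transcribes transfer RNAs and 5S ribosomal RNA. Each enzyme has subunits of its own and shares others, and each is brought to promoters by its own factors: SL1 with its TBP-associated factors (TAFs) for polymerase I, TFIIA, B, D, E, F and H for polymerase II, and TFIIIA, B and C for polymerase III. A trophoblast that is elongating grows by rapid cell division, which needs ribosomes and transfer RNAs as well as messenger RNA.

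The values are the deposited log2 intensities, with no missing value, between 2.235 and 14.61. Array medians lay between 5.62 and 5.716. The trophectoderm genes IFNT2, PAG11 and KRT18 had a mean of at least 14.44 in each length group. The mean level over all 8 measured trophectoderm genes was 11.78 to 11.86 in long and 11.29 to 11.77 in short conceptuses. For 7 endometrial genes the mean level was 4.035 to 4.258 in long and 3.96 to 4.234 in short conceptuses. The difference between the 3′ and 5′ actin control probe sets was 1.338 to 1.844 in long and 1.287 to 1.748 in short conceptuses. On the first principal component of all arrays the long conceptuses scored 5.89 to 31.58 and the short ones -38.4 to -1.829, with long replicates 1 and 2 and short replicates 4 and 5 farthest from 0. No probe set was removed for low signal, and 76 of the 81 lay above the lowest 25% of all probe sets by mean level. Each gene is given by its brightest probe set unless another is named.

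Across the 53 genes, levels were mostly lower in long than in short Grade 1 conceptuses, by small amounts. In the fit over 24016 probe sets (limma, with Benjamini-Hochberg adjustment over all of them and a threshold of 0.05), 11 genes were lower in long conceptuses and 1, GTF2E2, was higher. That is 20.8% of the 53 genes called lower, where 6.24% of all named genes were called lower and 3.27% called higher. Counted by probe set, 13 of 81 were lower and 1 higher (16% lower), where 3.87% of all probe sets were lower and 2.7% higher. Without short replicate 4, none of the 81 was called (limma, smallest adjusted p = 0.051), where 1.03% of all probe sets were lower and 0.887% higher. The fold differences of the called genes ran from 1.16 to 1.61. The sign was negative in 46 of 53 genes (86.8%, against 58.8% of all named genes), and the median log2 difference, long minus short, was -0.156, against -0.0348 over all named genes. The 5 long and 5 short values did not overlap in 13 of the 53 genes and in 16 of the 81 probe sets (19.8%, against 8.42% of all probe sets).

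**Figure D1:**
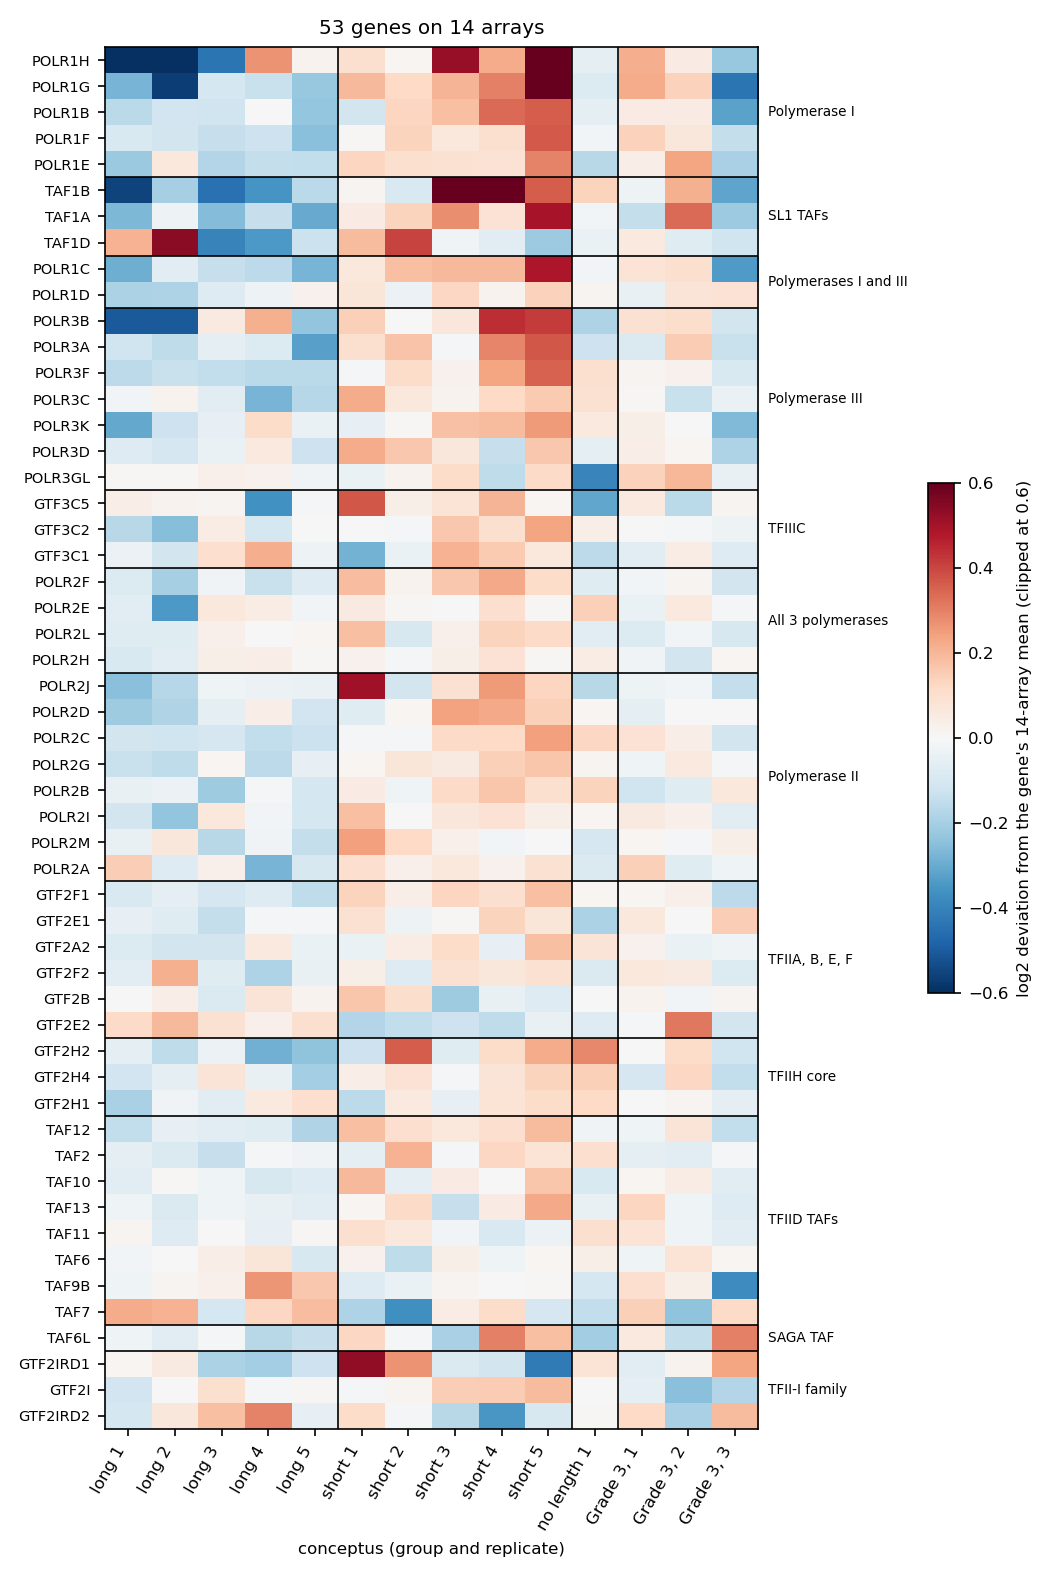
Log2 level of each of the 53 genes in each of the 14 conceptuses, drawn as the deviation from the gene's mean over all arrays (colours end at 0.6 either way), with genes in rows by class and conceptuses in columns by group. Rows of SL1 and of polymerases I, II and III are mostly below their mean in the 5 long and above it in the 5 short conceptuses. Rows of the TFIID TAFs differ less between long and short conceptuses.

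By count, the subunits found only in polymerase I held more called genes than any other class here, 3 of the 5 measured (60%). By share the SL1 TAFs were ahead, at 2 of 3 (66.7%), where 6.24% of all named genes were called lower. All 5 polymerase I genes were lower in long conceptuses, with a median difference of -0.307. POLR1G, which pairs with POLR1E in a dimer on the body of the enzyme, read 7.98, 7.70, 8.16, 8.13 and 8.03 in long replicates 1 to 5. Its values in short replicates 1 to 5 were 8.45, 8.38, 8.47, 8.56 and 8.91. All short values lay above all long ones, with short replicate 5 the highest and long replicate 2 the lowest, and the log2 difference was -0.56 ± 0.11 (SE), 1.47-fold lower in long, with an adjusted p of 0.0208 (limma). A dimmer POLR1G probe set differed the same way, by -0.37 ± 0.09 (adjusted p = 0.0323, limma).

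POLR1E, the partner of POLR1G, read 9.59, 9.88, 9.63, 9.67 and 9.67 in the long conceptuses and 9.94, 9.91, 9.90, 9.90 and 10.11 in the short ones. The groups were separated by a narrow gap, since long replicate 2 stood near the short values, and the difference was -0.27 ± 0.07 (1.20-fold, adjusted p = 0.0492, limma). A dimmer POLR1E probe set gave -0.29 ± 0.07 (adjusted p = 0.0329, limma). All 4 POLR1E probe sets were lower in long conceptuses and 2 of them passed, the smallest difference being -0.08. POLR1F, a subunit of the stalk through which polymerase I meets its initiation factor, read 7.84, 7.82, 7.80, 7.81 and 7.69 in long and 7.94, 8.07, 7.997, 8.03 and 8.30 in short conceptuses. Its groups did not overlap, and the difference was -0.28 ± 0.07 (1.21-fold, adjusted p = 0.0484, limma). The p-values of POLR1E and POLR1F lie next to the threshold.

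POLR1H and POLR1B were also lower in long conceptuses and did not pass. POLR1H, the small subunit that takes part in RNA cleavage, read 8.67, 8.77, 9.03, 9.74 and 9.49 in long and 9.57, 9.48, 9.99, 9.69 and 10.29 in short conceptuses. Long replicates 4 and 5 lay within the short range, so the difference of -0.66 had a wide interval (95% confidence interval -1.14 to -0.19, adjusted p = 0.0952, limma). POLR1B, the second-largest subunit, differed by -0.31 (-0.51 to -0.11, adjusted p = 0.0673, limma). Of the 3 POLR1B probe sets 2 were lower in long conceptuses and 1, a dimmer one, was higher by 0.12. With sex as a covariate POLR1H passed at an adjusted p of 0.0256 and the brightest POLR1B probe set at 0.0253 (limma). All 5 polymerase I genes were then called, but more of the whole array passed as well. In that fit 6% of all probe sets were lower and 4.01% higher, against 3.87% and 2.7% without the covariate. The largest subunit, POLR1A, was not analysed here.

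SL1 carries polymerase I to the ribosomal RNA promoter, and 2 of its 3 measured TAFs passed. TAF1B, which resembles the polymerase II factor TFIIB, read 6.96, 7.32, 7.07, 7.17 and 7.36 in long and 7.54, 7.43, 8.24, 8.23 and 7.89 in short conceptuses. The groups were separate but close at their edges, with short replicates 3 and 4 the highest, and the difference of -0.69 ± 0.16 was 1.61-fold (adjusted p = 0.0321, limma). All 3 TAF1B probe sets were lower in long conceptuses and 1 passed, the smallest difference being -0.29. In the dimmer probe sets the groups overlapped. Short replicate 1 read 6.11 against 6.19 in long replicate 5, and in the other short replicate 2 read 6.12 against 6.29. TAF1A read 5.00, 5.24, 5.01, 5.13 and 4.96 in long and 5.32, 5.40, 5.54, 5.35 and 5.76 in short conceptuses. No TAF1A value of a long conceptus reached the lowest short one, and the difference was -0.41 ± 0.09 (1.33-fold, adjusted p = 0.0298, limma). TAF1D did not follow: it differed by -0.08 (-0.48 to 0.31, adjusted p = 0.839, limma), with long replicate 2 at 8.83 above every short value.

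POLR1C and POLR1D form the dimer on which both polymerase I and polymerase III are assembled. POLR1C read 9.31, 9.53, 9.46, 9.44 and 9.32 in long and 9.66, 9.78, 9.79, 9.79 and 10.08 in short conceptuses. Its groups did not overlap, and the difference of -0.41 ± 0.08 (1.33-fold) had the smallest adjusted p of the family, 0.0207 (limma). POLR1D differed by -0.16 (-0.30 to -0.01, adjusted p = 0.184, limma) and did not pass.

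**Figure D2:**
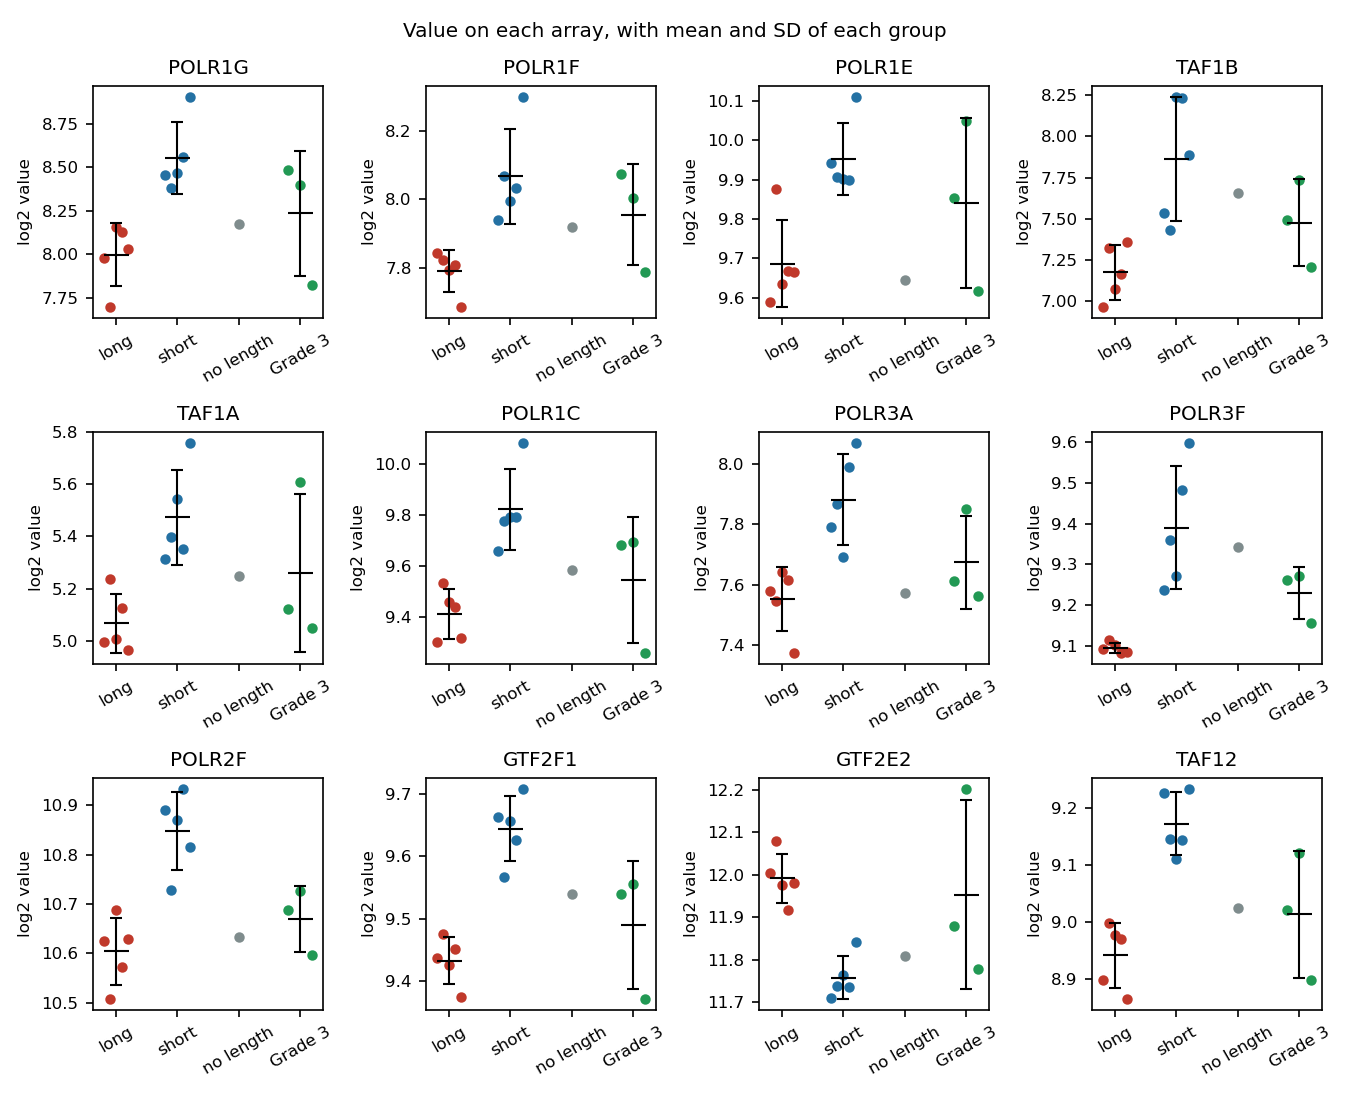
Log2 level of each gene that passed the test, by group, with a point for each conceptus, a bar at the group mean and whiskers of 1 SD. In each panel the 5 long and 5 short points do not overlap; GTF2E2 is the gene in which the long points are higher, and Grade 3 replicate 2 lies above all of them there.

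All 7 measured polymerase III subunits had a negative difference, with a median of -0.218, and 2 passed. POLR3A, the largest subunit and part of the catalytic centre, read 7.58, 7.55, 7.64, 7.61 and 7.37 in long and 7.79, 7.87, 7.69, 7.99 and 8.07 in short conceptuses. The groups were separate, with short replicate 3 nearest to the long values, and the difference was -0.33 ± 0.08 (1.26-fold, adjusted p = 0.0414, limma). POLR3F, of the subcomplex that helps open the promoter, was tightly grouped in the long conceptuses, at 9.09, 9.11, 9.10, 9.08 and 9.08. Its short values, 9.24, 9.36, 9.27, 9.48 and 9.60, were all higher and more spread, and the difference was -0.30 ± 0.07 (1.23-fold, adjusted p = 0.0398, limma). The other POLR3F probe sets, both dim, differed by 0.02 and 0.07 in the opposite direction and did not pass.

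POLR3B, the second-largest polymerase III subunit, had a larger estimate than either and did not pass (-0.41, -0.74 to -0.08, adjusted p = 0.131, limma), since long replicates 3 and 4, at 9.504 and 9.66, reached the short range of 9.45 to 9.89. POLR3GL, which takes the place of a paralogue in the promoter-opening subcomplex, differed by -0.0017 with an interval of -0.14 to 0.14 (adjusted p = 0.993, limma). Another POLR3GL probe set differed by -0.19 and did not pass. POLR3C, POLR3K and POLR3D, with differences of -0.22, -0.20 and -0.15, did not pass either. TFIIIC binds the internal promoters of transfer RNA genes, and none of its 3 measured subunits passed: GTF3C5 differed by -0.20 (-0.41 to 0.01), GTF3C2 by -0.19 (-0.36 to -0.02) and GTF3C1 by 0.01 (-0.21 to 0.22).

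Of the 4 measured subunits common to all 3 polymerases, POLR2F passed. It read 10.62, 10.51, 10.69, 10.57 and 10.63 in long and 10.89, 10.73, 10.87, 10.93 and 10.82 in short conceptuses. Short replicate 2 stood just above the highest long value, and the difference was -0.24 ± 0.06 (1.18-fold, adjusted p = 0.0417, limma). POLR2E, POLR2L and POLR2H differed by -0.10, -0.09 and -0.05 and did not pass.

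None of the 8 measured subunits specific to polymerase II passed, although all 8 had a negative difference and 6 had an unadjusted p under 0.05 (28.9% of all named genes had). Their median was -0.173 and they ranged from -0.28 (POLR2J, of the assembly dimer) to -0.12 (POLR2A, the largest subunit, whose tail couples transcription to RNA processing). POLR2A read 8.65, 8.42, 8.53, 8.22 and 8.41 in long and 8.60, 8.53, 8.57, 8.53 and 8.59 in short conceptuses. The highest POLR2A value of all 10 was that of long replicate 1, and the interval of the difference ran from -0.29 to 0.05 (adjusted p = 0.41, limma). POLR2B, the second-largest subunit, differed by -0.16 (-0.30 to -0.02, adjusted p = 0.158, limma). The stalk subunits POLR2D and POLR2G differed by -0.22 and -0.19, and POLR2I and POLR2M by -0.16 and -0.14. In POLR2C, the partner of POLR2J, the groups did not overlap and the difference was -0.21 (-0.35 to -0.08, adjusted p = 0.0637, limma). With sex as a covariate, POLR2C and POLR2D passed as well (adjusted p of 0.0359 and 0.0324, limma), in a fit where 6% of all probe sets were lower.

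The basal factors of polymerase II were split. GTF2E2, the smaller subunit of TFIIE, which recruits TFIIH to the polymerase, was the sole gene of the 53 called higher in long conceptuses. It read 12.004, 12.08, 11.98, 11.92 and 11.98 in long and 11.71, 11.74, 11.76, 11.73 and 11.84 in short conceptuses, a difference of 0.23 ± 0.06 (1.18-fold, adjusted p = 0.0338, limma), and the groups did not overlap. GTF2E1, the larger TFIIE subunit, had the opposite sign and did not pass (-0.11, -0.24 to 0.01, adjusted p = 0.28, limma). GTF2F1, of TFIIF, which binds polymerase II directly, read 9.44, 9.48, 9.43, 9.45 and 9.38 in long and 9.66, 9.57, 9.66, 9.63 and 9.71 in short conceptuses. Every short value was higher, and the difference was -0.21 ± 0.05 (1.16-fold, adjusted p = 0.0421, limma), while a second GTF2F1 probe set differed by 0.11 and did not pass. GTF2F2 (-0.07), GTF2B (0.02) and GTF2A2 (-0.11) did not pass, nor did the 3 TFIIH core genes GTF2H2 (-0.25), GTF2H4 (-0.13) and GTF2H1 (-0.03).

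TFIID recognises the core promoter through TBP and a set of TAFs, and its 8 measured TAFs had a median difference of -0.0633, with 5 negative and 3 positive. TAF12, a histone-fold TAF that is also part of the coactivator SAGA, passed: it read 8.90, 8.998, 8.98, 8.97 and 8.86 in long and 9.23, 9.15, 9.11, 9.14 and 9.23 in short conceptuses. The groups did not overlap and the difference was -0.23 ± 0.06 (1.17-fold, adjusted p = 0.0367, limma). TAF7, which binds TAF1 within TFIID, was the gene most positive in this class and did not pass (0.23, 0.01 to 0.44, adjusted p = 0.206, limma). TAF2, TAF10, TAF13 and TAF11 differed by -0.13, -0.12, -0.10 and -0.02. TAF9B, the X-linked paralogue of TAF9 and the sole X-linked gene of the 53, differed by 0.11 (-0.04 to 0.26). TAF6 differed by 0.02 (-0.11 to 0.15) and its SAGA paralogue TAF6L by -0.16 (-0.36 to 0.03). The TFII-I family, of which GTF2I binds initiator and E-box elements, held no called gene: GTF2I differed by -0.10, GTF2IRD1 by -0.13 and GTF2IRD2 by 0.18. Of the 17 genes with several probe sets, 8 had the same sign in all of them and 9 had mixed signs; GTF2F1 and POLR3F were the 2 mixed genes with a call.

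**Figure D3:**
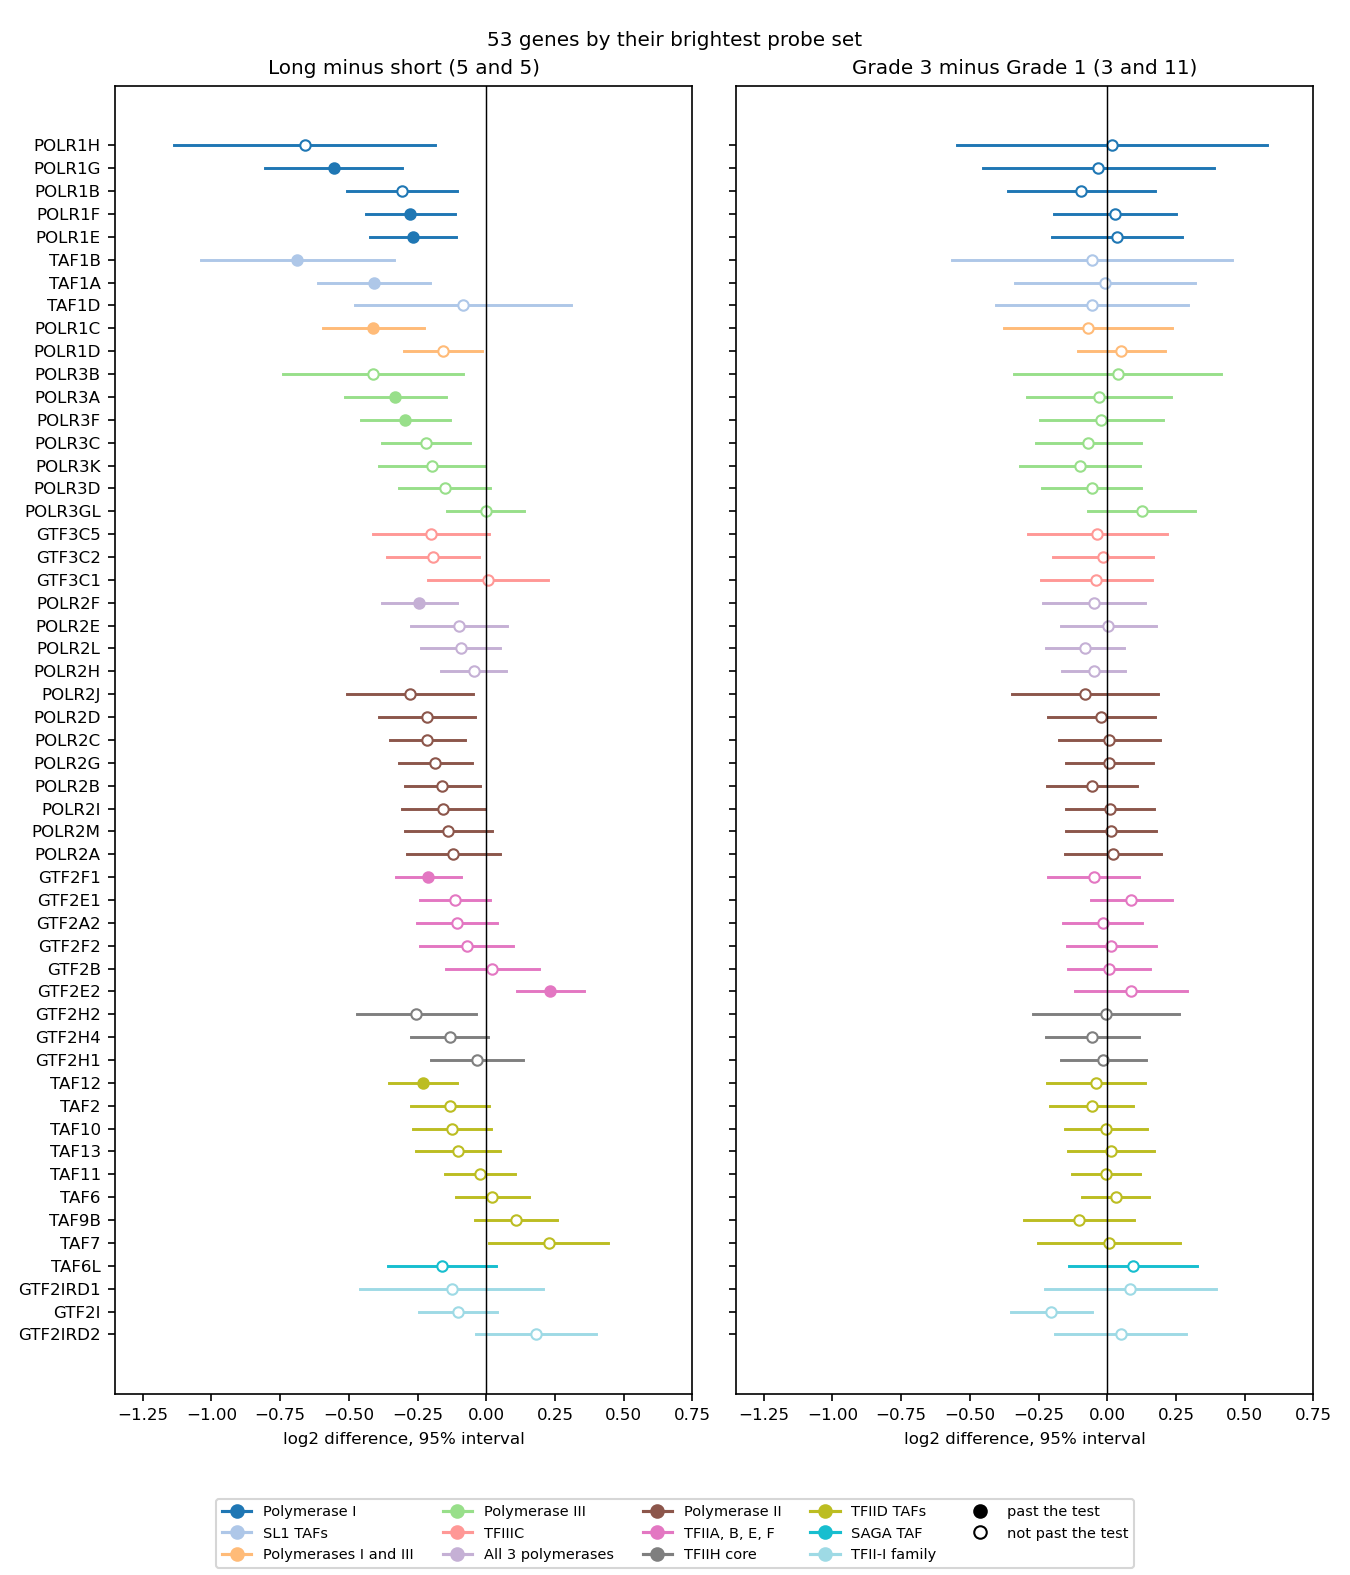
Log2 difference with its 95% confidence interval for each of the 53 genes, long minus short Grade 1 conceptuses on the left and Grade 3 minus Grade 1 on the right, coloured by class, with filled points for genes that passed the test. On the left 46 of 53 points are below 0 and 12 are filled; on the right the points run from -0.20 to 0.13 and none is filled.

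Set side by side, the class medians of the difference, long minus short, were -0.408 for the SL1 TAFs, -0.307 for polymerase I, -0.284 for the polymerase I and III dimer, -0.218 for polymerase III, -0.173 for polymerase II, -0.096 for the subunits common to all 3, and -0.0633 for the TFIID TAFs. Of the remaining classes, TFIIIC had a median of -0.192, the SAGA TAF -0.161 and the TFIIH core -0.133. The TFII-I family had -0.104 and the TFIIA, B, E and F genes -0.0888. The classes hold between 1 and 8 genes, and the differences between classes were not tested. Each conceptus was also given a class score, the mean over the genes of a class of the deviation from the gene's mean over all 14 arrays. The polymerase I score was -0.197 ± 0.112 (SD, n = 5) in long and 0.216 ± 0.171 (n = 5) in short conceptuses, and the polymerase III score -0.104 ± 0.0707 and 0.126 ± 0.0813. The polymerase II score was -0.0882 ± 0.0213 in long and 0.0954 ± 0.0482 in short conceptuses. The long and short scores of polymerases I, II and III did not overlap, and both the difference and the spread were smaller for polymerase II than for polymerase I. The SL1 scores overlapped, since long replicate 2, at 0.106, exceeded short replicate 1, at 0.0859.

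**Figure D4:**
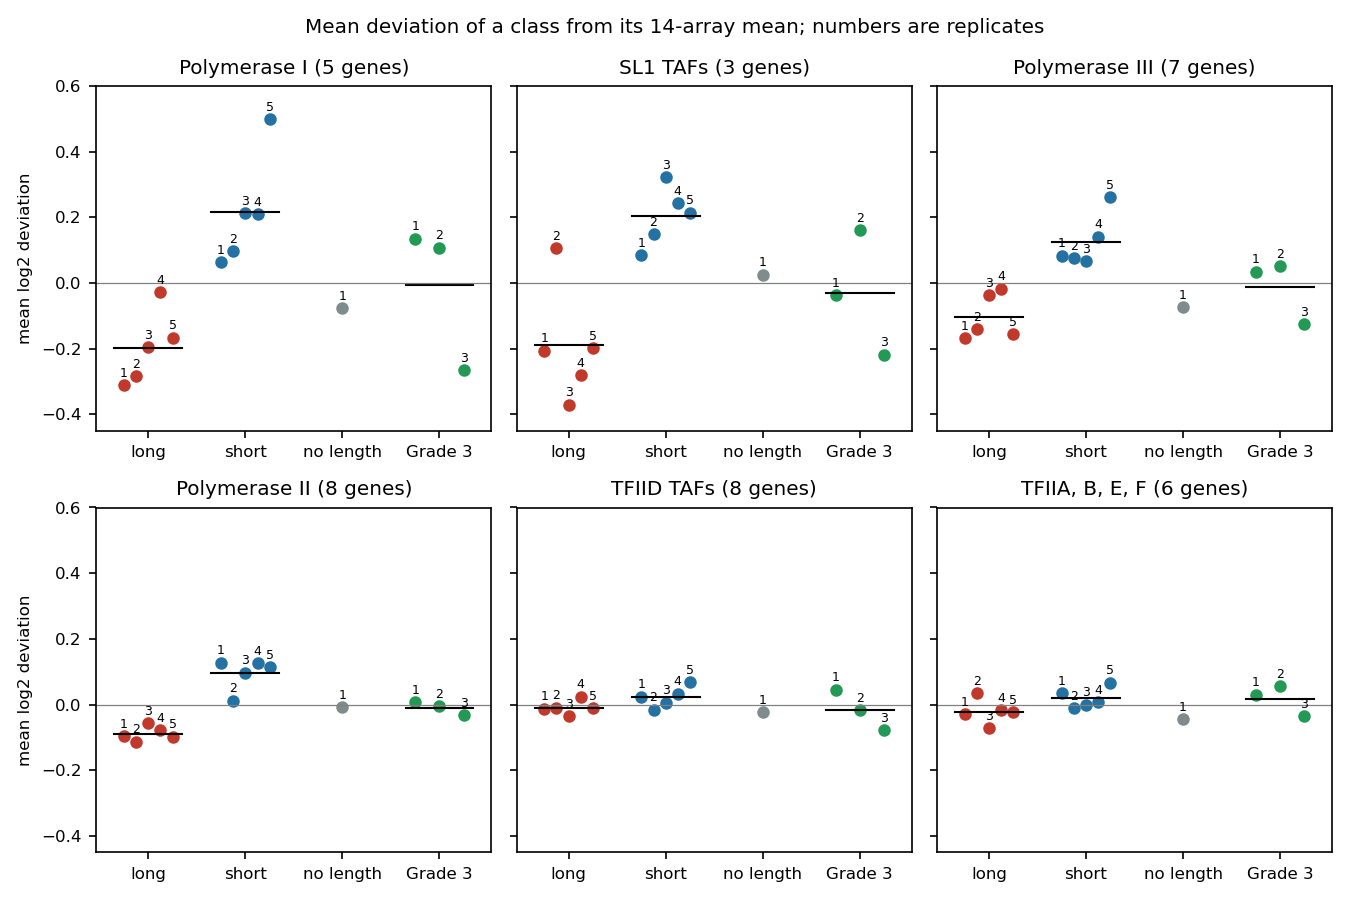
Class score (mean log2 deviation from the 14-array mean) of each conceptus, by group, for 6 classes, with the replicate number beside each point and a line at the group mean. The long and short points are separate for polymerases I, II and III and overlap for the SL1 TAFs, the TFIID TAFs and the TFIIA, B, E and F genes; Grade 3 replicate 3 lies low in the polymerase I panel and Grade 3 replicates 1 and 2 lie high.

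The number of calls moved with single conceptuses. When each of the 10 conceptuses was left out in turn, the number of probe sets called lower ran from 0 (without short replicate 4) to 11 (without short replicate 1), with 1 without long replicate 1 or long replicate 5, 3 without short replicate 5, 4 without long replicate 2, 3 or 4, 6 without short replicate 3 and 7 without short replicate 2. Over all probe sets the number called lower was 929 in the whole fit, 247 without short replicate 4 and 974 without short replicate 1. It was 359 and 276 without long replicates 1 and 5, and 377 without short replicate 5. Without long replicates 2, 3 and 4 it was 296, 650 and 511, and without short replicates 3 and 2 it was 639 and 732. The brightest POLR1G probe set passed in 9 of the 10 fits, POLR1C in 7 and TAF1A in 5, and the remaining called probe sets in 1 or 2 each. Without short replicates 4 and 5, or without long replicates 1 and 2, none of the 81 passed (limma, smallest adjusted p of 0.107 and 0.101), and few probe sets of the whole array did (27 lower and 24 higher, and 24 lower and 25 higher). Of the 64 negative differences, 62 were also negative without that pair of short conceptuses and 60 without that pair of long ones. The medians without the short pair were -0.23 for polymerase I, -0.204 for polymerase III and -0.159 for polymerase II, and without the long pair -0.305, -0.207 and -0.183. When the conceptus with disagreeing labels, short replicate 1, was counted as long, 4 probe sets passed as lower. Of the 14 probe sets called in the whole fit, 3 kept their call. Over all probe sets 222 were then lower (0.924%) and 270 higher (1.12%).

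**Figure D5:**
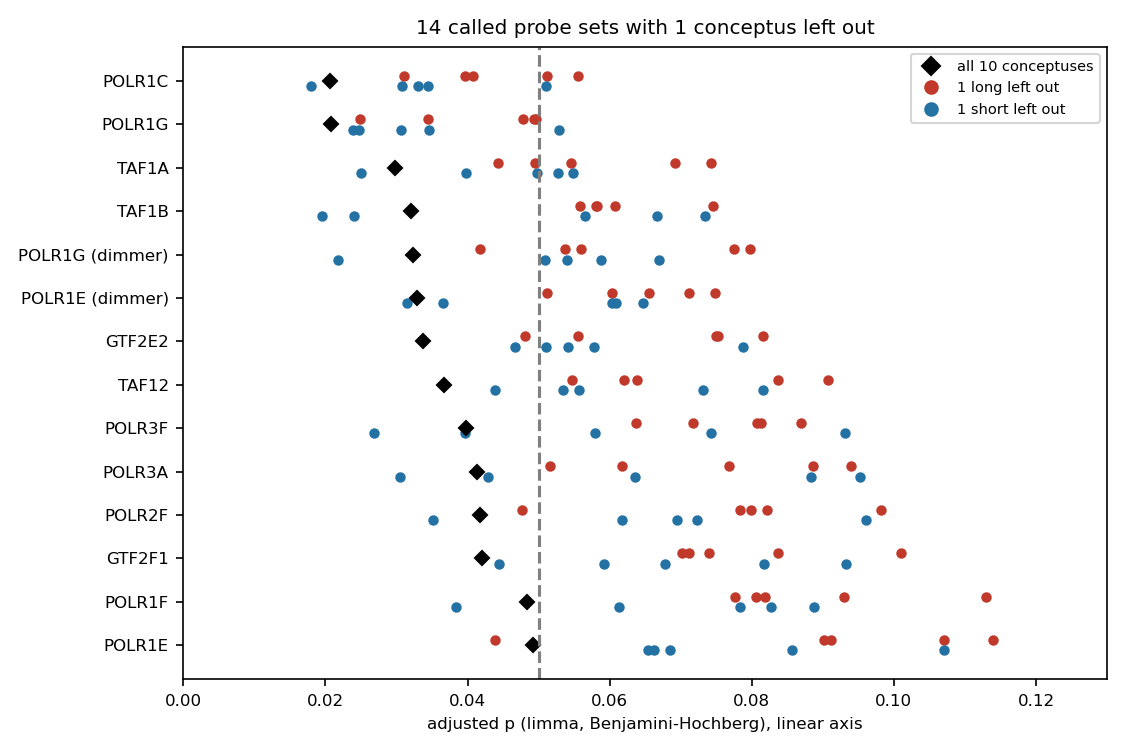
Adjusted p (limma, linear axis) of each of the 14 called probe sets with all 10 conceptuses (diamond) and with 1 long (red) or 1 short (blue) conceptus left out, with a dashed line at the threshold of 0.05. POLR1G stays left of the line in 9 of 10 fits and POLR1C in 7, while the rows from TAF1B down lie mostly right of it.

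The numbers that begin the sample titles, whose meaning the labels do not give, are shared by some conceptuses, and 2 of them cover both lengths. Among the 2 long and 1 short conceptuses of the first, 45 of the 53 genes were lower in long, with a median of -0.155 against -0.0235 over all genes. Among the 1 long and 2 short of the second, 43 of 53 were lower, with a median of -0.142 against -0.0442. All 14 called probe sets had the direction of the whole fit in both, as these arrays are part of that fit. With the title number as a fixed block 1 probe set, of POLR1H, was called lower (adjusted p = 0.0443, limma), out of 48 lower over all probe sets, and POLR1G had an adjusted p of 0.109. The length difference in that fit rests only on the 2 title numbers that cover both lengths. Its count therefore comes from fewer conceptuses than the fit of 5 against 5.

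The neighbouring machinery, taken from lists of genes that work with these polymerases, held 13 genes called lower in long conceptuses and none called higher, to be read against the 6.24% of all named genes called lower and 3.27% called higher. Of 13 genes for TBP, TFIIIB, SNAPc and the factors of polymerases I and III, 3 were lower in long conceptuses (23.1%), with a list median of -0.194. They were TCOF1, the nucleolar protein treacle (-0.44, adjusted p = 0.0319, limma), SSB, the La protein that binds new polymerase III transcripts (-0.33, adjusted p = 0.0344, limma), and NOLC1, a nucleolar protein that binds polymerase I (-0.33, adjusted p = 0.0411, limma). Of 25 Mediator genes, which link activators to polymerase II, 4 were lower (16%) and the median was -0.133. MED17 had the smallest adjusted p of these (-0.42, adjusted p = 0.00902, limma), and MED31 (-0.29), MED28 (-0.27) and MED22 (-0.47) also passed. Of 24 elongation genes 3 were lower (12.5%): PAF1 (-0.38), SUPT6H (-0.25) and NELFA (-0.22), with a median of -0.123. MNAT1, which assembles the TFIIH kinase, was lower among 5 kinase and helicase genes (-0.40, adjusted p = 0.0283, limma), TFB2M among 6 of mitochondrial transcription (-0.40, adjusted p = 0.0231, limma) and ENY2 among 10 of SAGA (-0.27, adjusted p = 0.0336, limma). A single gene in each of the last 3 lists is a small count from which nothing is read. None of 12 genes for polymerase II assembly passed (limma, median -0.0873), and 5 had an unadjusted p under 0.05, which 28.9% of all named genes had.

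Some markers of the cell types in a conceptus also passed in the same comparison, against the same shares of all genes. Of 8 trophectoderm genes 1, TFAP2A, was higher in long conceptuses (0.38), and the mean level over the 8 ran from 11.78 to 11.86 in long and from 11.29 to 11.77 in short conceptuses. Of 3 epiblast genes DNMT3B was lower in long (-0.39) and POU5F1 differed by -0.82 without passing, and the mean level over the 3 was 5.564 to 5.991 in long and 5.941 to 6.443 in short. Among 7 hypoblast genes RBP4 (1.30) and APOA1 (0.59) were higher and PDGFRA (-1.80) lower. Of 9 blood genes CD8A was lower (-0.84), with a mean level of 4.592 to 4.81 in long and 4.761 to 4.96 in short, and of 7 endometrial genes none passed (limma, 1 with an unadjusted p under 0.05). Group means in these lists ran from 3.00 (PTPRC) to 6.76 (CD8A) for the blood genes and from 3.13 (OXTR) to 6.98 (MUC1) for the endometrial genes. The part of cell composition in the polymerase differences was not tested.

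Embryo grade, the other comparison of the design, gave no call in the family. Grade 3 conceptuses (3) were set against all 11 Grade 1 conceptuses, and none of the 81 probe sets passed (limma, smallest adjusted p = 0.878), where 0% of all probe sets passed. The 53 genes were 31 negative and 22 positive, with a median of -0.0139 against -0.00194 over all genes, and ran from -0.20 to 0.13. This sign rested on Grade 3 replicate 3: without it the median over the genes was 0.0155, and 30 of the 81 probe sets were negative in place of 46. The groups overlapped in all 81 probe sets, while 0.554% of all probe sets did not overlap. An unadjusted p under 0.05 was found in 1 gene, GTF2I (limma), which is 1.89% of the family, against 4.05% of all named genes. GTF2I read 7.40, 7.199 and 7.28 in Grade 3 replicates 1 to 3, against a lowest value of 7.34, a median of 7.46 and a highest of 7.64 in Grade 1. Its Grade 3 values lay at the lower end, with replicate 1 inside the Grade 1 range, and the difference was -0.20 (-0.35 to -0.06). POLR1G read 8.48, 8.40 and 7.82 in Grade 3 replicates 1 to 3, so that replicates 1 and 2 lay in the range of the short and replicate 3 in that of the long conceptuses, and its grade difference was -0.03 with an interval of -0.45 to 0.39. POLR1C read 9.68, 9.70 and 9.26 in the same order, with replicates 1 and 2 in the short range and replicate 3 below the lowest long value.

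The polymerase I score of the Grade 3 conceptuses was therefore spread, from -0.265 to 0.135 with a mean of -0.0072 ± 0.224 (SD, n = 3), while their polymerase II score was -0.00963 ± 0.0202. Set against the length groups, which share the Grade 3 and Grade 1 samples of the comparisons above, Grade 3 lay between them. Against long conceptuses 43 of 53 genes were positive (median 0.0597, all genes 0.0201) and against short ones 45 of 53 were negative (median -0.103, all genes -0.0206). No probe set of the family passed in either (limma, smallest adjusted p of 0.572 and 0.288), nor did any probe set of the array (0%). An unadjusted p under 0.05 was found in 0 and 7 genes (limma). That is 0% and 13.2% of the family, where 9.63% and 12.4% of all named genes had it. Polymerase I had a median of 0.165 against long and -0.256 against short conceptuses. The Grade 1 conceptus without a length label had scores of -0.0754 for polymerase I, -0.0727 for polymerase III and -0.00711 for polymerase II.

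Sex, with grade in the model, was compared over 6 males and 8 females. No probe set of the family passed (limma, smallest adjusted p = 0.348), where 0.362% of all probe sets did. The median difference, male minus female, was -0.0179 against -0.0149 over all genes. An unadjusted p under 0.05 was found in 2 genes (limma), 3.77% of the family, against 7.97% of all named genes. The 2 genes were GTF2IRD1 (0.31, 0.10 to 0.53) and GTF3C1 (-0.20, -0.34 to -0.05). The X-linked TAF9B differed by -0.14 (-0.30 to 0.02, adjusted p = 0.682, limma).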

How the data were processed

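The deposited table holds log2 values for 24128 probe sets in 14 samples, the authors' RMA values; the submitters' processing notes name Affymetrix Expression Console as the software and give no version. Labelled RNA was made from 250 ng of total RNA, per the labels' protocols. The values were used as deposited, and 112 control probe sets were left out. Symbols came from the platform annotation: 13292 probe sets had 1 symbol, 86 several and 10638 none, and all 81 probe sets of the family matched RefSeq by Entrez number.

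Long and short (5 and 5), Grade 3 and Grade 1 (3 and 11), Grade 3 and each length group, and males and females were compared with lmFit and eBayes in limma 3.58.1 (R 4.3.3), adjusted over 24016 probe sets, at 0.05. The script was tested on simulated data. Each gene was represented by the probe set with the highest mean over all arrays. Named genes were those past the threshold, the extremes of each class, the largest subunits, listed paralogues, X-linked members and called genes whose probe sets disagree in sign; up to 4 called genes were named in each further list. The remaining members, the unadjusted grade and sex results and the marker genes were named after their values were seen. The members and lists were chosen with earlier results of these data known. Alternatives covered normalization, dim probe sets, the prior, sex, title number, the conflicting label, and conceptuses left out; leaving out short replicates 4 and 5, or long replicates 1 and 2, the farthest from 0 on the first principal component in each length group, was added after seeing the data. No promoter or protein sequence is shown. The number of arrays limits the precision.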

Additional observations from a re-analysis of the deposited data

Results flagged for a closer look

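In 80 groups of values, each gene or class score within the long or the short conceptuses, 5 had an extreme conceptus whose gap to the next exceeded Dixon's limit, where chance gives about 1 in 20. GTF3C5 read 7.00 in long replicate 4, with the other long values between 7.35 and 7.40. POLR1E read 9.88 in long replicate 2, against 9.59 to 9.67, and its dimmer probe set 8.32 in the same conceptus, against 8.18 to 8.21. In short replicate 5 the brighter POLR1E probe set read 10.1, against 9.90 to 9.94. The polymerase II class score of short replicate 2 was 0.012, against 0.0974 to 0.128 in the other short conceptuses.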

How the results depend on the processing

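The count of 13 probe sets lower in long conceptuses (929 over all probe sets, 3.87%) became 20 with sex as a covariate (1440 over all, 6%), 6 after another quantile normalization (725, 3.02%, with 742 higher), 4 with the conflicting label read as long (222, 0.924%), 1 with the title number as a fixed block (48, 0.2%), and 0 when short replicates 4 and 5 (27 over all) or, separately, long replicates 1 and 2 (24 over all) were dropped, both added after seeing the data. The fixed block takes the length difference only from the title numbers that cover both lengths, so it rests on fewer conceptuses. Leaving out 1 conceptus gave 0 to 11 lower (247 to 974 over all) and 0 to 1 higher. The 1 higher call, of GTF2E2, was 0 with centred arrays, with all 14 arrays in a fit of 4 groups, with the conflicting conceptus left out or counted as long, with the fixed block, and without either of these pairs. Negative differences numbered 60 to 67 of 81 in all these fits. The polymerase II grade median of 0.00725 turned to -0.0148 and -0.0144 without Grade 3 replicates 1 and 2 and was 0.0108 without replicate 3, and the median over the family, -0.0139, turned to 0.0155 without replicate 3 and to 0.00119 after another quantile normalization. No setting gave a call in the family for grade, Grade 3 against a length group, or sex (limma). The title number as a random block (correlation 0.138) left 13 lower.

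The genes that changed sign were not called in the fit as reported. GTF3C1 (0.01) was -0.0111 centred, -0.121 with the conflicting label read as long, and -0.069 with that conceptus, short replicate 1, left out. It was -0.0363 with sex and -0.0574 with the fixed block. Without long replicate 3, long replicate 4 and short replicate 2 it was -0.011, -0.0404 and -0.00874. Its highest value with 1 conceptus left out was 0.0542, without short replicate 3. It was 0.0747 without long replicates 1 and 2 and 0.0664 without short replicates 4 and 5. POLR3GL was 0.0186 with the fixed block and 0.00629, 0.000969, 0.0233 and 0.0238 without long replicate 5 and short replicates 2, 3 and 5, with a lowest value of -0.0427 without short replicate 4 and 4e-04 without long replicates 1 and 2. With 1 conceptus left out, GTF2H1 ranged from -0.0739 (without short replicate 1) to 0.00965 (without long replicate 1). GTF2H1 was -0.124 with the fixed block and -0.0958 with the label read as long. It was 0.025 without short replicates 4 and 5 and 0.0219 without long replicates 1 and 2. GTF2IRD1 (-0.13) was 0.102 with the label read as long. TAF1D was 0.00954 and 0.00242 without long replicate 3 and short replicate 2, and -0.227 without long replicate 2. TAF6 ranged from -0.011 (without short replicate 2) to 0.0454 (without long replicate 5) with 1 conceptus left out. It was 0.0894 with the fixed block. The cause of these changes was not tested.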
